A study of Mus musculus with 9 samples.

Results

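The comparison described here is that of mouse gastrocnemius muscle after 10 days of hindlimb unloading (Unloading, 2 libraries) with gastrocnemius of mice that stayed in ordinary cages (Control, 4 libraries). These 6 libraries were chosen by their labels from the 9 of the series. The remaining 3, taken 1 day after load was restored (Reloading), entered the statistical fit for the estimate of the spread and are not otherwise described. All mice were wild-type and carried no transgene. The strain of the mice is C57BL/6 in the labels and C57BL/6J in the study's results for this experiment. The labels give them as male, the methods of the study give the unloaded animals as female, and no age is stated. During unloading the mice hung by the tail from a nylon line, so that the hind legs bore no weight, and shared a cage in pairs, whereas Control mice lived in conventional cages. Effects of the lost load, of the suspension itself and of the housing cannot be told apart. Each library holds polyadenylated RNA of whole muscle, in which fewer cells of a type and less RNA per cell cannot be told apart.

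Muscle that is not loaded loses mass, because protein synthesis falls and breakdown through the proteasome and the autophagy pathway rises. FoxO transcription factors and glucocorticoid signalling are known to favour breakdown, and the IGF-Akt pathway to oppose it. Disuse is also known to lower the oxidative capacity of muscle, which is carried by the mitochondrial respiratory chain, the tricarboxylic acid (TCA) cycle and fatty acid oxidation, and to shift fibres from slow or oxidative towards fast or glycolytic types. The gastrocnemius of the mouse is largely a fast muscle.

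The libraries held between 9252443 and 19612101 read pairs in genes, and 1 read pair was worth between 0.0546 and 0.113 counts per 1000000 counts (CPM, with library sizes scaled by TMM factors) in the 6 libraries. The defining transcripts of fast muscle were abundant throughout, with 59203 to 69797 CPM of the fast myosin Myh4 in Control and 63875 to 68083 CPM in Unloading, and 17842 to 18403 and 18574 to 18715 CPM of the muscle creatine kinase Ckm. Control 3 stood apart by its interferon-stimulated genes, whose 49 tested members summed to 1159.6 CPM there and to between 268 and 363 CPM in the 5 other libraries. Control 2 stood apart by skin transcripts, with 319.8 CPM over 10 keratinocyte genes against at most 21.6 CPM in the 5 other libraries. Values or counts of calls without Control 3 are therefore given beside the leading results. CPM are listed in the order Control 1, 2, 3 and 4, then Unloading 1 and 2.

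After 10 days of unloading, transcripts of oxidative metabolism were lower, with 54 of 77 nuclear-encoded respiratory subunits and 12 of 18 TCA cycle genes past the test and none higher, as were the cardiac actin Actc1 and the myosin light chains Myl3 and Myl2. Transcripts that rose included the mitochondrial protein Mss51, the growth arrest gene Cdkn1a and the calcium pump of fast fibres, Atp2a1. So did 7 of 22 glucocorticoid-responsive genes and 8 of 20 circadian clock genes. Of 13 slow-fibre genes 2 were lower and none higher past the test, and 7 had a positive log2 fold change. Of 15 fast-fibre genes 2 were higher and 3 lower. A gene is said to be called, or to have risen or fallen, where its adjusted p was under 0.05 in edgeR's quasi-likelihood test. Of 14851 genes tested, 1470 (9.9%) were called, of which 653 (4.4%) were higher and 817 (5.5%) lower in Unloading. Most of the differences were small. The median log2 fold change was 0.44 among the higher and -0.54 among the lower genes, and 180 higher and 355 lower genes differed at least 1.5-fold. Without Control 3, 949 of 14736 genes (6.44%) were called, 391 (2.65%) higher and 558 (3.79%) lower, and with Control 2 also left out 555 of 14636 (3.79%) were, 225 (1.54%) higher and 330 (2.25%) lower. Of the 1470 genes, 922 were called both with and without Control 3 and all 922 kept their direction, which is 62.7% of the larger and 97.2% of the smaller set. The 548 genes called only with Control 3 were divided equally, 274 higher and 274 lower.

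The count rested more on Unloading 1 than on any other library. With Unloading 2 as the lone Unloading library, assumed to vary like the other groups, 121 genes were called, and with Unloading 1 alone 1236 were. Of 166 named genes that were called, 136 were also called without Control 3, and 37 were called in each of the 6 fits that left out a Control or Unloading library. Those that rose were Mss51, Tmem100, Flvcr1, Cited2, Cdkn1a, Inmt, Trp53inp1, Pfkfb3, Fbp2, Actn3, Cacng1, Eda2r, Chrnb1, Bhlhe40, Klf6, Gpx3, Odc1, Rps14 and Cilp, and those that fell were Actc1, Fabp3-ps1, Dusp8, Bdh1, Myl3, AC122818.4, Ndufc1, Sdhb, Cox7a1, Idh2, Lpl, Ldhb, Perm1, Acta1, Sypl2, Tfrc, Itgb1bp2 and Tpm2. Each of the other named genes was not called in at least 1 of the 6 fits, and without Unloading 1 the number called was 41. In 4896 of the 14851 genes (33.0%) the CPM of the groups did not overlap, with Unloading higher in 16.4% and lower in 16.6%. Among the 1470 called genes the groups did not overlap in 1458.

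**Figure D1:**
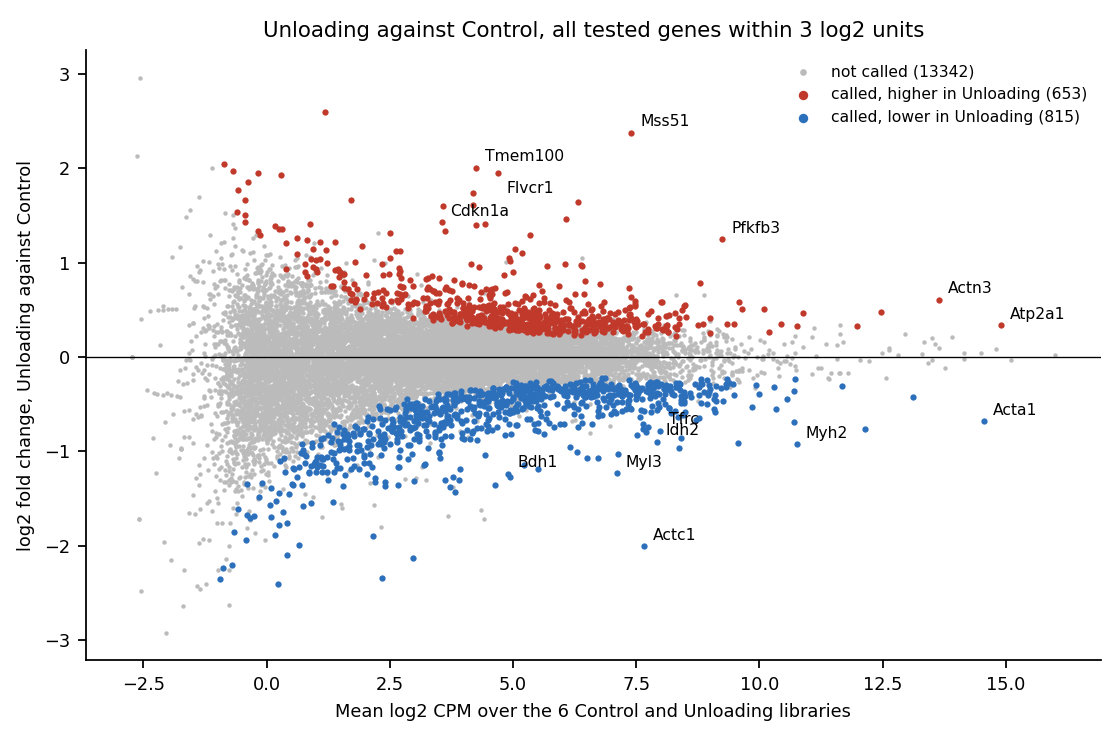
Log2 fold change of Unloading against Control (vertical axis) by mean log2 CPM over the 6 libraries (horizontal axis), with a point for each tested gene and red or blue for genes with an adjusted p under 0.05. The 41 genes beyond 3 log2 units, 2 of them called, are not drawn, and the called genes of high abundance include Atp2a1 and Actn3 above the line and Acta1 and Myh2 below it.

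**Figure D2:**
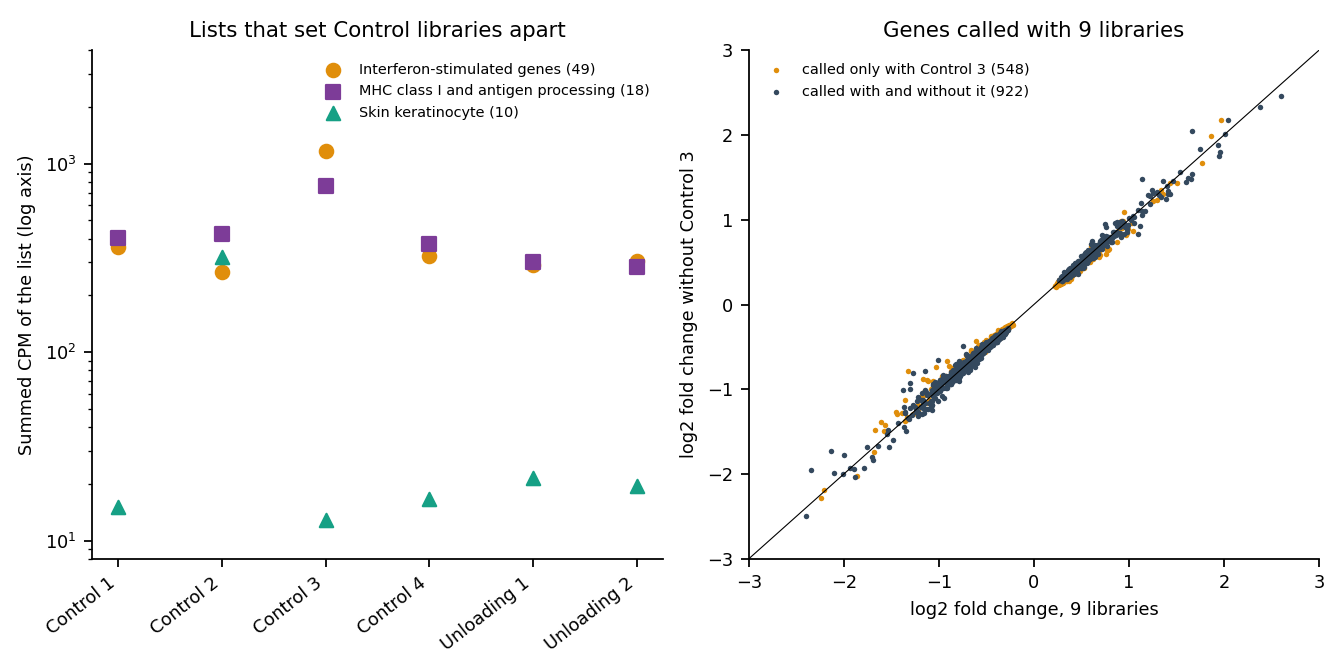
Left, the summed CPM of 3 gene lists (log axis) in each library, with Control 3 at 1159.6 CPM for interferon-stimulated genes and Control 2 at 319.8 CPM for keratinocyte genes. Right, the log2 fold change of each called gene with 9 libraries and without Control 3, in which the 548 genes called only with Control 3 (orange) and the 922 called both ways (dark) are plotted against the line of equal values on axes from -3 to 3.

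Fold changes also moved with the length of the gene. When the tested genes were divided by summed exon length into 5 groups of nearly equal size, the median log2 fold change was -0.23 in the group with the shortest exons (56 to 1835 bases), -0.03, 0.01 and 0.05 in the next 3 groups and 0.08 in the group with the longest (7241 to 123179 bases). In the shortest group 10.5% of genes were called lower and 1.35% higher. Relative to each gene's mean log2 CPM over the 6 libraries, the median of the shortest group was -0.17 and -0.09 in Unloading 1 and 2 and between 0.01 and 0.13 in Control. A fit that removed each library's trend with length, chosen after the data were seen, called 1271 genes. Its values are given below for some groups of genes only. Of the 166 named genes called with all libraries it called 139. Among those it did not call were B2m and Mb (log2 fold change -0.76 and -0.33, adjusted p 0.0828 and 0.0698).

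**Figure D3:**
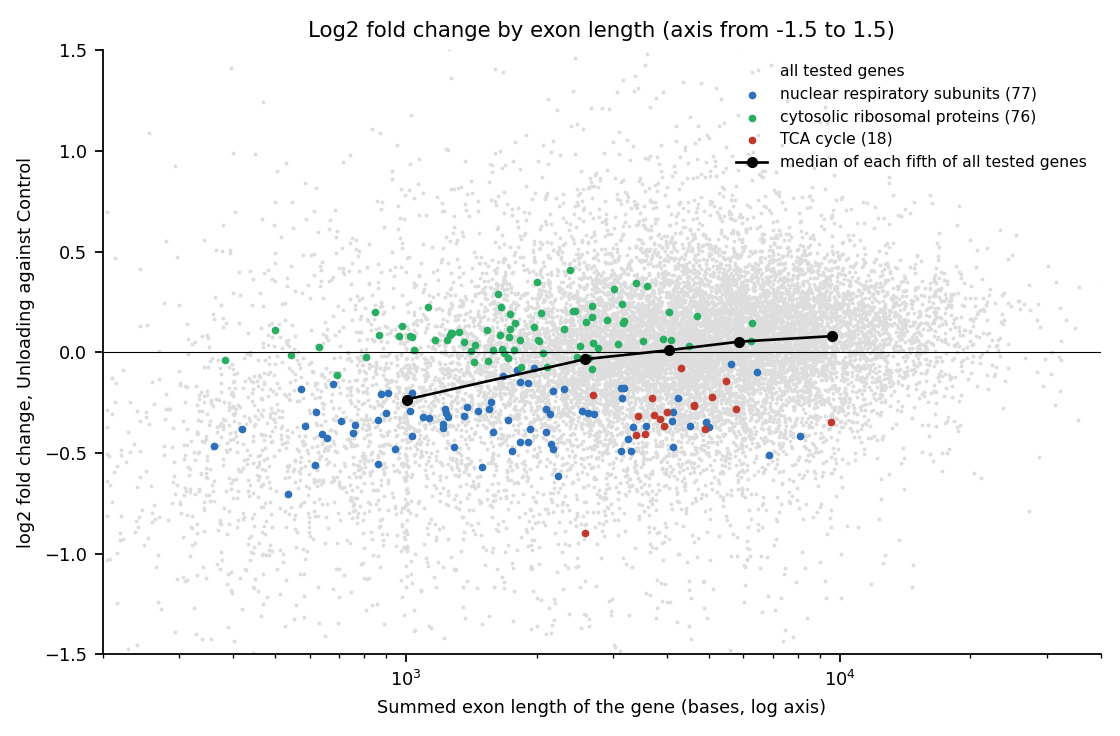
Log2 fold change of Unloading against Control by summed exon length in bases (log axis), with the median of each of 5 length groups of all tested genes in black. The 77 nuclear respiratory subunits (blue) and the 18 TCA cycle genes (red) lie mostly below the black line, while the 76 cytosolic ribosomal protein genes (green) lie mostly above it.

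By size, the genes that rose most included Mss51, Tmem100 and Flvcr1. In all 13 named here both Unloading libraries lay above all 4 Control libraries, which the rule for naming them requires. The 13 genes named as higher and the 14 named as lower were among those with the largest log2 fold changes among genes that were called with and without Control 3, did not overlap and averaged 3 or more on the log2 CPM scale, and 14 of these 27 were called in each of the 6 fits that left out a library. Mss51 (ENSMUSG00000021815, chromosome 14, 20482867 to 20496901, GRCm38), a muscle protein of the mitochondria known as a target of myostatin signalling, measured 98.1, 104, 88.1 and 103 CPM in Control and 628 and 392.1 CPM in Unloading. Tmem100 (ENSMUSG00000069763, chromosome 11, 90030348 to 90036508), a membrane protein induced by BMP receptors, measured 11.6, 10.9, 12.1 and 12.9 CPM in Control and 55.4 and 40.4 CPM in Unloading. Both rose, and Unloading 1 was the higher of the pair in each, with adjusted p-values of 0.000151 and 2.25e-05. The heme and choline transporter Flvcr1 measured 17.5, 25.7, 11.9 and 13.1 CPM in Control and 49.6 and 81.2 CPM in Unloading (log2 fold change 1.95 ± 0.22 SE, adjusted p 0.000233), and here Unloading 2 was the higher.

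Several of the other genes that rose encode regulators. Cited2, a co-regulator that binds CBP and p300, measured 52.8, 49.6, 47.6 and 43.1 CPM in Control and 105 and 159.5 CPM in Unloading, and no Control library came near the Unloading values (log2 fold change 1.46 ± 0.19 SE, adjusted p 0.000494 and 0.00148 without Control 3). Trp53inp1, a p53-responsive gene, measured 13.2, 12.1, 13.5 and 15.9 CPM in Control and 43.04 and 29.6 CPM in Unloading (log2 fold change 1.40 ± 0.14 SE, adjusted p 7.51e-05). Cebpd, a transcription factor induced by glucocorticoids and cytokines, measured 9.699, 16.4, 9.86 and 15.8 CPM in Control and 55.2 and 25.2 CPM in Unloading, and the Unloading libraries were far apart. Left to Unloading 2 it was no longer called (log2 fold change 0.96, adjusted p 0.0888). Cish, an inhibitor of cytokine signalling through STAT5, measured 16.2, 12.8, 14.5 and 6.86 CPM in Control and 33.8 and 49.6 CPM in Unloading, with the lowest level in Control 4. It was called with all libraries (log2 fold change 1.74 ± 0.43 SE, adjusted p 0.02) but neither without Unloading 1 (adjusted p 0.0999) nor without Unloading 2 (adjusted p 0.127).

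The remaining genes of this group act in metabolism, at the membrane or in the matrix. Chac1, which degrades glutathione and is a target of Atf4, measured 57.7, 104, 37.6 and 35.7 CPM in Control and 135 and 231 CPM in Unloading, and Control 2 was the Control library nearest to Unloading. The rise (log2 fold change 1.65 ± 0.31 SE) had adjusted p-values of 0.00486 with all libraries, 0.0114 without Control 3 and 0.0594 without Unloading 2. Inmt, a methyltransferase, measured 14.3, 16.8, 12.4 and 19.05 CPM in Control and 41.99 and 41.1 CPM in Unloading, with nearly equal Unloading libraries (log2 fold change 1.41 ± 0.13 SE, adjusted p 4.41e-05). Prg4, the joint and tendon lubricant lubricin, measured 6.203, 6.88, 6.07 and 15.6 CPM in Control and 19.3 and 33.00 CPM in Unloading, and Control 4 stood above the other Control libraries (adjusted p 0.00462, and 0.0693 without Unloading 2). Kcnf1, a modifying subunit of potassium channels, measured 9.02, 6.96, 8.002 and 12.7 CPM in Control and 29.9 and 16.7 CPM in Unloading (adjusted p 0.0071, and 0.211 without Unloading 1).

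Pfkfb3, which makes the activator of phosphofructokinase, and Cdkn1a are described below with their pathways.

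**Figure D4:**
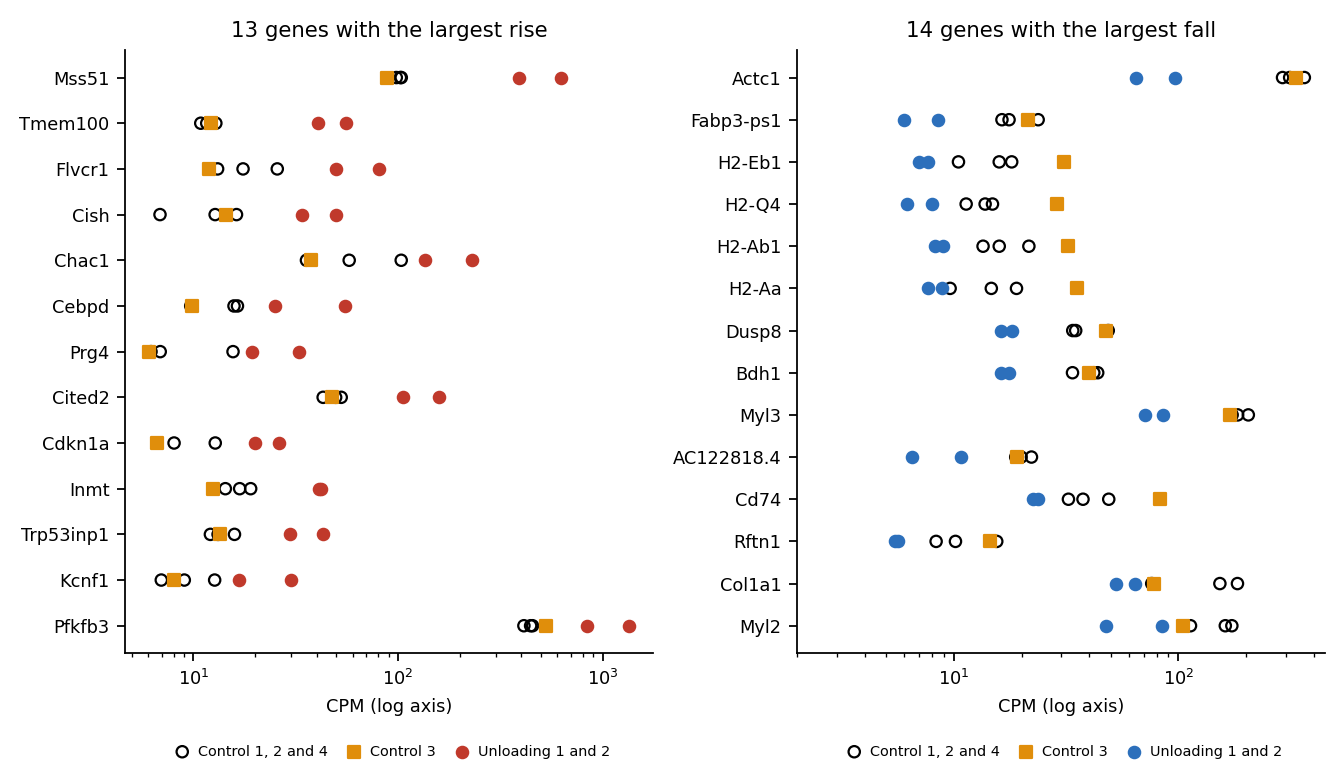
CPM (log axis) of 13 genes with the largest rise and 14 with the largest fall by the rule given in the text, with open circles for Control 1, 2 and 4, squares for Control 3 and filled circles for Unloading 1 and 2. In each gene the Unloading values lie, as the rule requires, on one side of all 4 Control values. Control 3 is the highest Control library for H2-Eb1, H2-Q4, H2-Ab1, H2-Aa and Cd74.

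The genes with the largest fall included Actc1, the myosin light chains Myl3 and Myl2 and genes of antigen presentation. Actc1 (ENSMUSG00000068614, chromosome 2, 114047282 to 114053548), the actin of heart and developing muscle, measured 313, 364, 333 and 291 CPM in Control and 64.6 and 96.5 CPM in Unloading, a fitted difference of 4.02-fold, with a gap between the groups much wider than the spread within either (log2 fold change -2.01 ± 0.24 SE, adjusted p 0.000301 and 0.000531 without Control 3). Bdh1 (ENSMUSG00000046598, chromosome 16, 31422280 to 31458901), the mitochondrial enzyme that uses the ketone body beta-hydroxybutyrate, measured 33.7, 41.9, 39.9 and 43.7 CPM in Control and 16.2 and 17.6 CPM in Unloading, and the Unloading libraries were nearly equal (log2 fold change -1.24 ± 0.13 SE, adjusted p 0.000138). Dusp8, a phosphatase of stress-activated kinases, measured 34.8, 48.7, 47.7 and 33.8 CPM in Control and 16.2 and 18.1 CPM in Unloading (log2 fold change -1.27 ± 0.15 SE, adjusted p 0.000304). Each of these genes was called in all 6 fits that left out a library.

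Fabp3-ps1, a pseudogene of the fatty acid carrier Fabp3, measured 16.4, 23.7, 21.3 and 17.6 CPM in Control and 5.99 and 8.52 CPM in Unloading, and its reads may come from Fabp3, which fell as well. AC122818.4, a gene known here by its clone name, measured 18.8, 22.1, 19.01 and 19.9 CPM in Control and 6.51 and 10.8 CPM in Unloading (adjusted p 0.000553). Rftn1, a lipid raft protein, measured 10.1, 15.5, 14.4 and 8.32 CPM in Control and 5.46 and 5.63 CPM in Unloading (adjusted p 0.00522, and 0.0943 without Unloading 1). Col1a1, Myl3, Myl2 and the antigen presentation genes follow with their groups.

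The nuclear-encoded subunits of the respiratory chain fell as a broad group. Complexes I to IV carry electrons from NADH and succinate to oxygen, and complex V makes ATP from the proton gradient. All 77 subunits tested had a log2 fold change below 0, and 54 were called lower (70.1%, against 5.5% of all tested genes), with a median log2 fold change of -0.34 against -0.00 over all tested genes. By complex the called subunits were 22 of 36 in complex I, 4 of 4 in complex II, 8 of 9 in complex III, 11 of 13 in complex IV and 9 of 15 in complex V, with medians between -0.36 and -0.32. Summed over the 77 genes, the level lay between 24279 and 26291 CPM in Control and was 19045 and 21644 CPM in Unloading 1 and 2. Without Control 3, 42 were called at the same median.

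The size of this fall depended on Unloading 1 and on the length correction. Without Unloading 1 the median was -0.23 and 3 subunits were called, and without Unloading 2 it was -0.45 with 59 called. With the trend with gene length removed, the median was -0.19 and 28 subunits were called. The median exon length of the 77 genes was 1718 bases. In the group of shortest genes without respiratory subunits the median log2 fold change was -0.23, so that short respiratory genes lay in a group that was lower as a whole. The part of the length trend in the fall was not tested beyond these values.

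Sdhb, the iron-sulfur subunit of complex II, measured 387, 415, 396 and 408 CPM in Control and 251 and 274 CPM in Unloading, which puts every Control library far above both Unloading libraries. Its log2 fold change was -0.61 ± 0.07 SE (adjusted p 0.000233), and it was -0.57 (adjusted p 0.000233) with the length trend removed. Ndufc1, a complex I subunit, measured 164, 147, 150.0 and 148 CPM in Control and 94.2 and 111 CPM in Unloading (log2 fold change -0.57 ± 0.08 SE, adjusted p 0.000951, and 0.00306 with the length trend removed). Both were also called in each fit that left out a library.

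Other subunits depended more on the correction. Cox7a1, the complex IV subunit of heart and skeletal muscle, measured 212, 249, 243 and 235 CPM in Control and 129 and 158 CPM in Unloading, with the largest fall of the 77 (log2 fold change -0.71 ± 0.10 SE, adjusted p 0.000837), and with the length trend removed its log2 fold change was -0.36 and its adjusted p 0.0585. Cox8b, another muscle form of a complex IV subunit, measured 388, 388, 406 and 406 CPM in Control and 258 and 318 CPM in Unloading, and its log2 fold change went from -0.46 to -0.05 once the length trend was removed. Cox8b is among the shortest genes of the list, whereas Atp5j of complex V, at 371, 406, 377 and 378 CPM in Control and 247 and 298 CPM in Unloading, kept a log2 fold change of -0.49 (adjusted p 0.00184) under the same correction.

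The factors Nrf1 and the estrogen-related receptors are known to drive respiratory genes, so the promoters of the group were searched for their motifs in RefSeq sequence of GRCm38.p6 from 250 bases before to 50 bases after the start of each gene. Of the 77 genes, 64 were matched. The core of the Nrf1 motif, GCGCATGC on either strand, occurred in 9 of the 64 (14.1%), in 3.05% of all 27025 promoters and in 5.26% of those of cytosolic ribosomal protein genes. The estrogen-related receptor motif TCAAGGTCA occurred in 2 of the 64 (3.13%) and in 0.466% of all promoters. These are matches of letters, and binding was not measured. Among the genes with the Nrf1 core, Ndufa6, Atp5g2 and Atp5l were not called. The example printed for each motif is, of the called genes that hold it, that with the largest absolute log2 fold change. Sdhb and Atp5g3, a subunit of the complex V ring at 463, 566, 520.2 and 478 CPM in Control and 333 and 392.4 CPM in Unloading, are printed as examples of each motif, with the first base of the match at -54 and -52 from the gene start and capitals marking that motif, which reads on the opposite strand in both.
Sdhb, chr4:140961021-140961320, plus strand: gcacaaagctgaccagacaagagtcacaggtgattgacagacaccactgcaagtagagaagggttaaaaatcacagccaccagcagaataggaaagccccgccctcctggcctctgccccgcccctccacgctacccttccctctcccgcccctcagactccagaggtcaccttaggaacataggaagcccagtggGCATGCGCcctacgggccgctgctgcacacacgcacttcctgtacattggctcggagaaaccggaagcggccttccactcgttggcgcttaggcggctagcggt
Atp5g3, chr2:73911277-73911576, minus strand: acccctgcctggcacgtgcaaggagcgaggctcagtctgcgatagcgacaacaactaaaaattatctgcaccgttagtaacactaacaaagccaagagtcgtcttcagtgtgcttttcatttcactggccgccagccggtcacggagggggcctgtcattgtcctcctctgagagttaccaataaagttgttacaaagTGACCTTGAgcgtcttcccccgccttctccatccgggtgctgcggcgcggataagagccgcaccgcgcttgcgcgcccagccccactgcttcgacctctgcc

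The 13 respiratory subunits encoded in mitochondrial DNA did not fall as a group. The 7 with the highest CPM (2708 to 38497 CPM over the 6 libraries, not scaled by length) had log2 fold changes between -0.12 and 0.24 and none was called. The remaining 6, at 32.5 to 272 CPM, were called lower, with log2 fold changes between -0.76 and -0.37. Of these, mt-Atp6 and mt-Atp8 were not called without Control 3 (adjusted p 0.0845 and 0.0688), and none was called without Unloading 1. With the length trend removed 2 of the 13 were lower and 2 higher, and the median turned from -0.12 to 0.10. Of the 6 called lower with all libraries, mt-Co2, a core subunit of complex IV, measured 263, 272, 271 and 216 CPM in Control and 136 and 169 CPM in Unloading, where Control 4 lay between the other Control libraries and Unloading. Of 7 predicted genes on chromosome 1 that are known as copies of mitochondrial genes, Gm28661 and Gm29216 among them, at 34.8 to 652 CPM, 6 were called lower. Reads of near-identical mitochondrial and nuclear copies can be divided between them in counting, so the values of these 6 subunits are uncertain.

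The TCA cycle oxidises acetyl groups to feed the respiratory chain. Of its 18 genes, 12 were called lower (66.7%, against 5.5% of all tested genes) and none higher. The median was -0.30, and all 18 log2 fold changes were below 0. Unlike the respiratory subunits these genes are of middling length, and with the length trend removed 14 were called at a median of -0.32. Without Control 3, 11 were called, and without Unloading 1, 1 was, at a median of -0.23. That gene was Idh2 (ENSMUSG00000030541, chromosome 7, 80094846 to 80115392), the mitochondrial isocitrate dehydrogenase that makes NADPH, at 289, 295, 302 and 299 CPM in Control and 156 and 162 CPM in Unloading. Neither Unloading library came near the narrow Control range (log2 fold change -0.90 ± 0.08 SE, adjusted p 3.02e-05 and 0.000114 without Control 3). Mdh2, the mitochondrial malate dehydrogenase, measured 707, 876, 819 and 756 CPM in Control and 545 and 648 CPM in Unloading (log2 fold change -0.41 ± 0.09 SE, adjusted p 0.0137).

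Fatty acid uptake and oxidation moved in the same direction with a wider spread between genes. Of 26 genes 10 were called lower (38.5%, against 5.5% of all tested genes) and none higher. The median was -0.28, and without Control 3 there were 8 calls. Fabp3, the fatty acid carrier of oxidative muscle, measured 183, 298, 276 and 252 CPM in Control and 129 and 163 CPM in Unloading, and Control 1 lay closest to Unloading (log2 fold change -0.79 ± 0.15 SE, adjusted p 0.00544). Lpl, the lipase that frees fatty acids from lipoproteins, measured 614, 586, 619 and 644 CPM in Control and 444 and 398 CPM in Unloading (log2 fold change -0.55 ± 0.09 SE, adjusted p 0.00275), and it was the member called without Unloading 1. Acads and Hadh, enzymes of beta-oxidation, had log2 fold changes of -0.59 and -0.47.

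Among regulators of mitochondrial genes, Perm1 and Esrra fell. Perm1, a muscle partner of the PGC-1 and estrogen-related receptor proteins, measured 241, 256, 255 and 259.9 CPM in Control and 163 and 176 CPM in Unloading, without overlap and with a narrow spread in each group (log2 fold change -0.58 ± 0.07 SE, adjusted p 0.000356). Esrra, the alpha estrogen-related receptor, measured 125, 145, 135 and 134 CPM in Control and 89.2 and 113 CPM in Unloading (log2 fold change -0.41 ± 0.09 SE, adjusted p 0.013, and 0.265 without Unloading 1). Ppargc1a, which encodes PGC-1 alpha, measured 43.5, 37.6, 36.7 and 43.2 CPM in Control and 41.3 and 36.7 CPM in Unloading, and here the groups overlapped (log2 fold change -0.04 ± 0.12 SE, adjusted p 0.855). Nrf1 measured 11.95, 12.4, 13.00 and 13.04 CPM in Control and 17.7 and 15.3 CPM in Unloading and was higher in Unloading with all libraries (adjusted p 0.031) but not past the threshold without Control 3 (adjusted p 0.0547). Of 68 mitochondrial ribosomal proteins 10 were called lower (14.7%, against 5.5% of all tested genes) at a median of -0.22, and 4 without Control 3. With the length trend removed 8 were called lower at a median of -0.15. Without Unloading 1 the median was -0.14.

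Of 29 glycolysis and glycogen genes 4 were higher (13.8%) and 3 lower (10.3%), against 4.4% and 5.5% of all tested genes. The median was -0.03, and 2 were higher and 3 lower without Control 3. Pfkfb3, whose product raises fructose 2,6-bisphosphate and with it the flux through phosphofructokinase, measured 445, 413, 527 and 455 CPM in Control and 840.1 and 1345 CPM in Unloading (log2 fold change 1.25 ± 0.19 SE, adjusted p 0.00196 and 0.00246 without Control 3). Fbp2, the muscle fructose-bisphosphatase, measured 40.7, 45.3, 37.7 and 40.1 CPM in Control and 64.6 and 68.6 CPM in Unloading, with nearly equal Unloading values (log2 fold change 0.70 ± 0.08 SE, adjusted p 0.000251). In the other direction, Ldhb, the heart-type lactate dehydrogenase subunit, measured 187, 192, 186 and 196 CPM in Control and 129 and 131 CPM in Unloading (log2 fold change -0.55 ± 0.07 SE, adjusted p 0.000356). Pgam2, the muscle phosphoglycerate mutase, measured 1719, 2267, 2039 and 1770.1 CPM in Control and 1092 and 1332 CPM in Unloading (log2 fold change -0.69 ± 0.11 SE, adjusted p 0.0024, and 0.0814 without Unloading 1). Hk2, the insulin-regulated hexokinase, had a log2 fold change of -0.37 (adjusted p 0.00759).

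In the contractile apparatus, genes were called in each direction. Of the slow-fibre genes 2 of 13 were lower and of the fast-fibre genes 2 of 15 higher and 3 lower, with medians of 0.06 and 0.05. These are 15.4% and 33.3% called, against 9.9% of all tested genes. The slow-fibre median rested on which Unloading library was used, at -0.49 without Unloading 1 and 0.35 without Unloading 2, and it was -0.29 without Control 2 and 3. Myl3 (ENSMUSG00000059741, chromosome 9, 110741861 to 110769798), the essential light chain of slow and ventricular myosin, measured 173, 184, 169.8 and 205 CPM in Control and 85.1 and 70.9 CPM in Unloading, with both Unloading libraries well below Control (log2 fold change -1.23 ± 0.10 SE, adjusted p 2.25e-05 and 4.59e-05 without Control 3). Its regulatory partner Myl2 measured 162, 113, 105 and 173 CPM in Control and 84.6 and 47.4 CPM in Unloading (log2 fold change -1.07 ± 0.25 SE, adjusted p 0.0145, and 0.137 without Unloading 2). The slow myosin heavy chain Myh7 ranged widely within both groups, at 245, 138, 131 and 278 CPM in Control and 277 and 157 CPM in Unloading, and its log2 fold change of 0.13 ± 0.26 SE was -0.03 without Control 3, so no difference was detectable (adjusted p 0.795). In Myl2 as in Myh7, Control 1 and 4 lay above Control 2 and 3, and Unloading 1 above Unloading 2.

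Among the fast myosins, the IIa heavy chain Myh2, of oxidative fast fibres, measured 1928, 2238, 2161 and 2291 CPM in Control and 1065 and 1203 CPM in Unloading and fell without overlap (log2 fold change -0.93 ± 0.18 SE, adjusted p 0.00544 and 0.123 without Unloading 1). The IIx chain Myh1 measured 2618, 3514, 2688 and 3060.4 CPM in Control and 3760.2 and 3751 CPM in Unloading, where both Unloading values were above Control but the test was not passed (log2 fold change 0.34 ± 0.12 SE, adjusted p 0.0892). Myh4, the IIb chain, measured 59203, 64846, 65359 and 69797 CPM in Control and 63875 and 68083 CPM in Unloading and did not separate the groups (adjusted p 0.879).

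Thin-filament and Z-disc genes with high CPM moved in both directions. Acta1, the skeletal actin, measured 25679, 31029, 29478 and 26283 CPM in Control and 16414 and 18635 CPM in Unloading (log2 fold change -0.68 ± 0.09 SE, adjusted p 0.000698 and 0.00235 without Control 3), and Tpm2, the beta tropomyosin, measured 4923, 5845, 5681 and 5136 CPM in Control and 2916 and 3426 CPM in Unloading (log2 fold change -0.77 ± 0.09 SE, adjusted p 0.000301). Actn3, the alpha-actinin of fast Z-discs, measured 11205, 11063, 10830.0 and 11411 CPM in Control and 18138 and 15779 CPM in Unloading and rose (log2 fold change 0.61 ± 0.08 SE, adjusted p 0.000595). All 3 were called in each fit that left out a library. Des, the desmin of intermediate filaments, measured 3603, 3806, 3796 and 3678 CPM in Control and 4636 and 4738 CPM in Unloading (log2 fold change 0.33 ± 0.07 SE, adjusted p 0.0096), and Myl1, the fast essential light chain, 9445, 10358, 10139.5 and 9320.2 CPM in Control and 6682 and 7953 CPM in Unloading (log2 fold change -0.42, adjusted p 0.00762). Neither was called without Unloading 1, with adjusted p-values of 0.0948 and 0.183.

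Of the 9 embryonic and cardiac contractile genes, Actc1, Myh3 and Mybph were called lower (33.3%, against 5.5% of all tested genes). Myh3, the embryonic myosin heavy chain, stood at 3.29 to 5.19 CPM in Control and 1.497 to 2.404 CPM in Unloading (adjusted p 0.0159). Mybph, a myosin binding protein, measured 77.8, 90.6, 83.1 and 104 CPM in Control and 52.02 and 40.4 CPM in Unloading (log2 fold change -0.95 ± 0.23 SE, adjusted p 0.0194, and 0.108 and 0.134 without Unloading 1 and Unloading 2).

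Calcium handling and membrane excitability included called genes in each direction. Atp2a1, the calcium pump of fast fibres, measured 27498, 28647, 27467 and 28903 CPM in Control and 36078 and 34875 CPM in Unloading, and both Unloading libraries were above all Control libraries (log2 fold change 0.33 ± 0.07 SE, adjusted p 0.00767, and 0.108 without Unloading 1). Cacng1, the gamma subunit of the muscle calcium channel, measured 247, 279.6, 253 and 251 CPM in Control and 349 and 352 CPM in Unloading (log2 fold change 0.44 ± 0.07 SE, adjusted p 0.00196). Sypl2, a protein of the triad membranes, measured 449, 566, 491 and 464 CPM in Control and 291 and 329.7 CPM in Unloading and fell (log2 fold change -0.67 ± 0.09 SE, adjusted p 0.000861). Jph2, a junctophilin that ties the triad together, fell by less, from 1314 to 1405 to 991 to 1168 CPM (adjusted p 0.016).

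Of 23 ion channel genes of the muscle membrane, 3 were higher (13.0%) and 2 lower (8.7%), against 4.4% and 5.5% of all tested genes. Kcna5, a voltage-gated potassium channel, measured 3.61, 4.73, 3.57 and 3.77 CPM in Control and 8.31 and 7.38 CPM in Unloading (log2 fold change 0.99 ± 0.18 SE, adjusted p 0.00385, and 0.0792 without Unloading 1). Chrnb1 (ENSMUSG00000041189, chromosome 11, 69784036 to 69795943), the beta subunit of the acetylcholine receptor, measured 23.9, 26.7, 26.8 and 26.3 CPM in Control and 56.4 and 41.1 CPM in Unloading (log2 fold change 0.90 ± 0.12 SE, adjusted p 0.000463), and was the one called gene of 22 genes of the synapse and of the response to denervation. This is 4.5% of the list called higher, near the 4.4% of all tested genes. Without Control 3 that list had 3 calls, all higher, Chrne and Sln being the others (adjusted p 0.0452 and 0.0157, against 0.089 and 0.259 with it). Of all tested genes, 2.65% were called higher without Control 3. The 2 Unloading values of Chrnb1 were apart from each other but far above the narrow Control range.

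Genes of protein breakdown were called in each direction. Of 27 muscle ubiquitin ligases and FoxO-related atrophy genes, 2 were higher and 4 lower (14.8%, against 5.5% of all tested genes), with a median of 0.07. The atrophy ligases Fbxo32 (atrogin-1) and Trim63 (MuRF1) overlapped between the groups, at 265, 281, 336 and 294 CPM in Control and 324 and 381 CPM in Unloading for Fbxo32 and 219, 277, 258 and 295 CPM in Control and 281 and 267 CPM in Unloading for Trim63, with adjusted p-values of 0.185 and 0.799. Among the genes that fell were Fbxl22, a ligase subunit of the Z-disc, at 3.95, 4.39, 4.36 and 4.204 CPM in Control and 2.395 and 2.08 CPM in Unloading (log2 fold change -0.93 ± 0.20 SE, adjusted p 0.00896), and Trim72, a membrane repair protein, at 182, 213, 192 and 219 CPM in Control and 144 and 151 CPM in Unloading (adjusted p 0.0043). The genes that rose were Cebpd and Nedd4, a ubiquitin ligase with a log2 fold change of 0.26 (adjusted p 0.0982 without Control 3). None of the 6 was called without Unloading 1.

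The proteasome had 2 of 35 genes higher, which is 5.7%, near the 4.4% of all tested genes. These were Psmd4 and Psmd2, with log2 fold changes of 0.30 and 0.23. Psmd2 was not called without Control 3 (adjusted p 0.0988). Autophagy and lysosome genes had 6 of 32 higher (18.8%, against 4.4% of all tested genes) and none lower, with a median of 0.11. Map1lc3a, which coats autophagosomes, measured 152, 159, 154 and 146 CPM in Control and 193 and 213 CPM in Unloading (log2 fold change 0.41 ± 0.08 SE, adjusted p 0.00634), and Ctsl, a lysosomal protease, 82.8, 82.4, 85.6 and 86.5 CPM in Control and 118 and 106 CPM in Unloading (log2 fold change 0.41 ± 0.07 SE, adjusted p 0.00377). Bnip3l and Lamp2, which act in the removal of mitochondria and at the lysosomal membrane, each had a log2 fold change of 0.34. Without Control 3 the list had 4 calls, all higher, and without Unloading 1 it had 1.

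Genes known to respond to glucocorticoids were shifted upwards. Of 22 such genes 7 were higher (31.8%, against 4.4% of all tested genes) and none lower, and 20 had a positive log2 fold change, with a median of 0.47. Control 4 was the highest Control library in several of them. Fkbp5, a chaperone of the receptor, measured 44.9, 27.1, 30.4 and 71.3 CPM in Control and 94.02 and 75.6 CPM in Unloading, so that Control 4 nearly reached Unloading 2 (log2 fold change 0.97 ± 0.28 SE, adjusted p 0.0396 and 0.0898 without Control 3). Per1, also a clock gene, measured 61.01, 70.9, 51.8 and 87.1 CPM in Control and 152 and 115 CPM in Unloading with the same highest Control library (log2 fold change 0.97 ± 0.15 SE, adjusted p 0.00196). Lcn2, a secreted iron-binding protein, was at or below 0.902 CPM in Control and at 1.65 and 1.91 CPM in Unloading (adjusted p 0.0058), which is 22 and 35 read pairs in Unloading. Without Control 3 the list had 5 calls and a median of 0.39. Without Unloading 1 it had 1 call and a median of 0.14, and without Unloading 2 it had 10 calls and a median of 0.70.

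Cdkn1a (ENSMUSG00000023067, chromosome 17, 29090976 to 29100727), the cell cycle inhibitor p21, belongs both to these genes and to those of growth arrest. It measured 6.65, 8.04, 6.64 and 12.8 CPM in Control and 26.3 and 19.9 CPM in Unloading, and Control 4 was again the highest Control library (log2 fold change 1.43 ± 0.20 SE, adjusted p 0.000928 and 0.00246 without Control 3). Of 20 growth arrest and p53-responsive genes, 6 were higher (30.0%) and 2 lower (10.0%), against 4.4% and 5.5% of all tested genes. The median was -0.01. Eda2r, a receptor of ectodysplasin A2, measured 22.1, 24.4, 26.5 and 26.3 CPM in Control and 39.4 and 40.7 CPM in Unloading (log2 fold change 0.68 ± 0.09 SE, adjusted p 0.00057). Sesn1, a stress-induced inhibitor of mTORC1 signalling, measured 22.6, 20.97, 17.9 and 18.6 CPM in Control and 34.6 and 24.2 CPM in Unloading (log2 fold change 0.55 ± 0.14 SE, adjusted p 0.0195, and 0.397 without Unloading 1). The 2 that fell were Ccng1, with a log2 fold change of -0.53, and Trp53inp2, with -0.50. The sum of the 20 genes was lower in Unloading, at 1806 and 1919 CPM against 2216 to 2414 CPM in Control.

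In the myostatin, activin and BMP pathway a few receptors were called higher and most genes were not called. Myostatin and activins limit muscle mass through type II and type I receptors, and BMP signals through related receptors favour it. Of 35 genes 6 were higher (17.1%, against 4.4% of all tested genes) and none lower. Beside Tmem100 they were Acvr2a, Acvr2b, Acvr1b, Bmpr1a and Smad5. Acvr2b, with an adjusted p of 0.0411, was not called in any of the 6 fits that left out a library. Acvr2a, a type II activin receptor, measured 45.00, 31.1, 35.8 and 41.4 CPM in Control and 58.3 and 51.2 CPM in Unloading (log2 fold change 0.52 ± 0.11 SE, adjusted p 0.0113 and 0.0309 without Control 3). Acvr1b, a type I activin receptor, measured 98.9, 89.9, 83.03 and 111 CPM in Control and 139 and 119.8 CPM in Unloading (log2 fold change 0.44 ± 0.11 SE, adjusted p 0.0227 and 0.0599 without Control 3). Myostatin itself, Mstn, measured 76.7, 77.8, 71.5 and 94.5 CPM in Control and 101 and 93.7 CPM in Unloading, with an overlap between Control 4 and Unloading 2 (log2 fold change 0.28 ± 0.10 SE, adjusted p 0.0901). The median of the list was 0.03, and 3 members were called without Control 3 and 1 without Unloading 1.

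In IGF and insulin signalling 7 of 30 genes were higher and 2 lower, which fell to 2 and 2 without Control 3 and to none without Unloading 1. With all libraries 23.3% were higher and 6.7% lower, against 4.4% and 5.5% of all tested genes. Igf1 measured 29.1, 20.4, 37.8 and 24.9 CPM in Control and 23.3 and 17.3 CPM in Unloading, with overlap between the groups (adjusted p 0.169). Its receptor Igf1r measured 21.99, 20.9, 19.9 and 18.96 CPM in Control and 31.1 and 28.4 CPM in Unloading (adjusted p 0.00484). H19, a noncoding RNA of the imprinted Igf2 region, measured 447, 383, 370.0 and 469 CPM in Control and 216 and 243 CPM in Unloading (log2 fold change -0.86 ± 0.13 SE, adjusted p 0.00193 and 0.00205 without Control 3). Grb14, an inhibitor of the insulin receptor, measured 14.7, 21.1, 15.4 and 15.01 CPM in Control and 6.36 and 11.9 CPM in Unloading (log2 fold change -0.84 ± 0.21 SE, adjusted p 0.0224). The kinase subunit gene Pik3r1 was high in Unloading 1 alone, at 41.5, 32.9, 33.2 and 49.6 CPM in Control and 87.2 and 46.4 CPM in Unloading (adjusted p 0.0467, 0.103 without Control 3 and 0.696 without Unloading 1).

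The circadian clock is a loop in which Arntl and Clock drive the Per and Cry genes, which then repress them, with further arms that run through nuclear receptors such as the Nr1d genes and through Dbp. Of 20 clock genes 8 were higher (40.0%, against 4.4% of all tested genes) and 1 lower (5.0%, against 5.5%). There were 18 positive log2 fold changes, and the median was 0.16. Ciart, a repressor of the loop, measured 15.3, 11.4, 11.8 and 18.4 CPM in Control and 28.8 and 27.1 CPM in Unloading (log2 fold change 0.98 ± 0.17 SE, adjusted p 0.00317, and 0.0635 without Unloading 1). Bhlhe40, a repressor that binds E-boxes, measured 184, 157, 142 and 147 CPM in Control and 224 and 232 CPM in Unloading (log2 fold change 0.54 ± 0.09 SE, adjusted p 0.00319), whereas its relative Bhlhe41 was the member that fell, with a log2 fold change of -0.42.

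The core members themselves did not all follow. Arntl measured 6.32, 6.63, 7.07 and 4.805 CPM in Control and 6.81 and 5.41 CPM in Unloading (adjusted p 0.917) and Per2 23.2, 23.4, 25.9 and 29.8 CPM in Control and 27.8 and 28.7 CPM in Unloading (adjusted p 0.455), and both overlapped between the groups. Without Control 3, 6 clock genes were higher and 1 lower, and without Unloading 1 there were 2 calls, and Bhlhe40 kept its own. The time of day of the samplings is not given in the sources used here.

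The loop acts through E-boxes (CACGTG) and D-boxes (TTATGTAA). Of the clock genes 17 were matched to a promoter of the same window. An E-box occurred in 5 of the 17 (29.4%) and in 8.09% of all promoters, and a D-box in 1 of the 17 (5.88%) and in 1.11%. The promoter of Ciart holds 3 E-boxes, at -116, -58 and -44 from the start, and that of Per3, which measured 47.6, 44.5, 46.9 and 50.4 CPM in Control and 74.9 and 59.6 CPM in Unloading, holds 2 D-boxes, at -205 and -158. Of the other clock genes with an E-box, Per1 was higher, Bhlhe41 was lower, and Cry1 and Tef were not called. Ciart and Per3 were picked by the same rule as Sdhb and Atp5g3 and are printed with these motifs in capitals.
Ciart, chr3:95882179-95882478, minus strand: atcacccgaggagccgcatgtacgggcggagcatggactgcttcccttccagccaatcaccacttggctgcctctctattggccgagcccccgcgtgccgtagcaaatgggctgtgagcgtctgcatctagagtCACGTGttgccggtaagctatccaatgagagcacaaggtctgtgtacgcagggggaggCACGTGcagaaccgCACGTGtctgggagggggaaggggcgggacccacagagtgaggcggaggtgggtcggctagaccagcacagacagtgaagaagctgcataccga
Per3, chr4:151044616-151044915, minus strand: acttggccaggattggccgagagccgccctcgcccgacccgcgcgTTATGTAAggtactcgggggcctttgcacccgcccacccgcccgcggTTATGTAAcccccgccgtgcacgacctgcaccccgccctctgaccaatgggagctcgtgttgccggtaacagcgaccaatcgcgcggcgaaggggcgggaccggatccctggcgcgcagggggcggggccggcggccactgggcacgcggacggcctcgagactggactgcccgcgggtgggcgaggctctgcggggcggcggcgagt

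Among translation genes the medians were slightly above 0 and the number of calls changed with the library left out. Of 76 cytosolic ribosomal proteins 6 were higher (7.9%, against 4.4% of all tested genes) and none lower, with a median of 0.08. With the length trend removed 24 were higher at a median of 0.19. Without Control 3 there were 3 calls and without Unloading 1 there was 1, all higher. Their summed level was 12474 to 13096 CPM in Control and 14238 and 13621 CPM in Unloading. Rps14 measured 216, 227, 217 and 227 CPM in Control and 298 and 292 CPM in Unloading (log2 fold change 0.41 ± 0.07 SE, adjusted p 0.00234). Reads of ribosomal protein genes can be shared with their processed pseudogenes. Of the translation factors 17.9% were higher and 5.1% lower with all libraries, against 4.4% and 5.5% of all tested genes. Among translation factors 7 of 39 were higher and 2 lower, which became 3 and 1 without Control 3, and none was called without Unloading 1. Eef2, which moves the ribosome along the message, measured 1579, 1663, 1654 and 1534 CPM in Control and 2100.2 and 1948 CPM in Unloading (log2 fold change 0.33 ± 0.07 SE, adjusted p 0.0113), while Eef1a2, the muscle form of the factor that brings in aminoacyl-tRNA, measured 1684, 1926, 1890.4 and 1791 CPM in Control and 1245 and 1589 CPM in Unloading (log2 fold change -0.36 ± 0.09 SE, adjusted p 0.0243 and 0.0599 without Control 3).

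Single genes of polyamine, iron and redox metabolism stood out. Odc1, the entry enzyme of polyamine synthesis, measured 124, 129, 151 and 149.9 CPM in Control and 226 and 236 CPM in Unloading (log2 fold change 0.73 ± 0.09 SE, adjusted p 0.000331), and Tfrc, the receptor that takes up transferrin-bound iron, measured 354, 315, 248 and 300.1 CPM in Control and 181 and 172 CPM in Unloading (log2 fold change -0.78 ± 0.11 SE, adjusted p 0.000928). In Tfrc the Control spread was wide, and without Control 3, its lowest Control library, the log2 fold change was -0.87. Mb, the oxygen store myoglobin, measured 1509, 1736, 1696 and 1802 CPM in Control and 1093 and 1385 CPM in Unloading (log2 fold change -0.44 ± 0.11 SE, adjusted p 0.0203), and Alas1, the first enzyme of heme synthesis, 96.4, 111, 96.3 and 108 CPM in Control and 70.7 and 83.00 CPM in Unloading (log2 fold change -0.42 ± 0.09 SE, adjusted p 0.0117). Gpx3, a secreted glutathione peroxidase, measured 158, 140.0, 135 and 146 CPM in Control and 192 and 224 CPM in Unloading and rose (log2 fold change 0.52 ± 0.08 SE, adjusted p 0.00196). Odc1, Tfrc and Gpx3 were called in each fit that left out a library, and Mb and Alas1 were not called without Unloading 1 (adjusted p 0.344 and 0.223).

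In the matrix, a few collagens were called lower and several other matrix genes higher. Of 23 collagen genes Col1a1, Col3a1 and Col24a1 were lower (13.0%, against 5.5% of all tested genes) and none higher, with a median of -0.21. Without Control 2, a library with high Col1a1, 1 was called and the median was -0.10. Col1a1, of type I collagen, measured 76.01, 183, 77.9 and 153 CPM in Control and 52.7 and 63.8 CPM in Unloading, with Control 2 and 4 far above Control 1 and 3 (log2 fold change -1.07 ± 0.31 SE, adjusted p 0.0399). Col3a1 measured 105, 163, 111 and 89.5 CPM in Control and 65.05 and 77.8 CPM in Unloading (log2 fold change -0.71 ± 0.19 SE, adjusted p 0.0261). Neither was called without Unloading 1 or without Unloading 2, with adjusted p-values for Col1a1 of 0.33 and 0.0939. Col1a1 was called in 2 of the 6 fits that left out a library. Of 41 other matrix genes 6 were higher (14.6%) and 1 lower (2.4%), against 4.4% and 5.5% of all tested genes. Ccn1, a matricellular protein, measured 12.5, 16.6, 16.4 and 18.4 CPM in Control and 34.9 and 27.6 CPM in Unloading (log2 fold change 0.95 ± 0.15 SE, adjusted p 0.00237), and Cilp, an inhibitor of TGF-beta in cartilage, 11.5, 13.3, 9.86 and 11.7 CPM in Control and 17.1 and 23.2 CPM in Unloading (log2 fold change 0.81 ± 0.13 SE, adjusted p 0.00234).

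Of 27 angiogenic factors and receptors 3 were lower, Vegfa, Vegfb and Kdr, and 1 higher, Pgf, with a median of -0.09. That is 11.1% lower and 3.7% higher, against 5.5% and 4.4% of all tested genes. Vegfa measured 203, 242, 249 and 226 CPM in Control and 137 and 172 CPM in Unloading (log2 fold change -0.57 ± 0.10 SE, adjusted p 0.00374 and 0.0113 without Control 3) and Vegfb 82.8, 105, 95.6 and 82.9 CPM in Control and 52.8 and 71.5 CPM in Unloading (log2 fold change -0.55 ± 0.12 SE, adjusted p 0.00935). Kdr, the main receptor of Vegfa on endothelium, measured 24.4, 26.9, 34.4 and 24.5 CPM in Control and 10.6 and 15.9 CPM in Unloading, with the highest value in Control 3 (log2 fold change -1.04 ± 0.18 SE, adjusted p 0.00304). Pgf, placental growth factor, measured 1.01, 1.16, 1.43 and 1.46 CPM in Control and 2.47 and 2.35 CPM in Unloading (log2 fold change 0.90 ± 0.23 SE, adjusted p 0.0249 and 0.0428 without Control 3). Without Unloading 1 none of the 4 was called, and the adjusted p-values of Vegfa, Vegfb, Kdr and Pgf were 0.108, 0.215, 0.0881 and 0.191. Without Unloading 2 and without Control 2 the adjusted p of Pgf was 0.0759 and 0.0555.

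Markers of other cell types were looked at for each group. Of 11 endothelial markers Kdr and Vwf were lower (18.2%, against 5.5% of all tested genes). The sum of the 11 was 214 to 252 CPM in Control and 213 to 214 CPM in Unloading. Of 7 fibro-adipogenic markers Pdgfra and Dcn were higher (28.6%) and Col1a1 lower (14.3%), against 4.4% and 5.5% of all tested genes. No macrophage marker of 14 and no adipocyte marker of 8 was called, and macrophage markers summed to 95.7 to 119 CPM in Control and 98.8 to 101 CPM in Unloading. Tendon markers, which include Col1a1, summed to 178 to 331 CPM in Control, highest in Control 2 and 4, and to 154 and 172 CPM in Unloading. The part of the tendon and cell type content in the matrix results was not tested.

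Antigen presentation was lower, and Control 3 enlarged the difference. MHC class I proteins present peptides on nearly all cells, and class II proteins on antigen-presenting cells. Of 18 class I and processing genes 5 were called lower with Control 3 (27.8%, against 5.5% of all tested genes) and 5 without it. The median was -0.74 with and -0.42 without it. Their summed level was 405, 422, 762 and 376 CPM in Control and 302 and 282 CPM in Unloading. B2m, the light chain shared by class I molecules, measured 82.4, 81.5, 169 and 77.1 CPM in Control and 54.6 and 47.8 CPM in Unloading (log2 fold change -1.01 ± 0.27 SE, and -0.65 with an adjusted p of 0.0158 without Control 3). H2-Q4 measured 13.8, 14.8, 28.7 and 11.3 CPM in Control and 8.01 and 6.17 CPM in Unloading (log2 fold change -1.31, and -0.92 with an adjusted p of 0.0449 without Control 3). Reads of the closely related H2-Q genes can be divided between them in counting. Leaving out either Unloading library left none of the 5 called.

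The class II genes H2-Aa, H2-Ab1, H2-Eb1 and their chaperone Cd74 were among the genes named for the largest falls. The rule for these requires no overlap between the groups and a call without Control 3, so neither is a separate result here. No list of class II genes was drawn up. Each of the 4 was highest in Control 3. H2-Ab1 measured 15.9, 21.6, 32.2 and 13.5 CPM in Control and 8.91 and 8.196 CPM in Unloading (log2 fold change -1.30 ± 0.26 SE, and -0.997 with an adjusted p of 0.00472 without Control 3). H2-Eb1 measured 15.9, 18.1, 30.8 and 10.5 CPM in Control and 6.96 and 7.65 CPM in Unloading (adjusted p 0.0104 and 0.00732 without Control 3). Cd74 measured 37.6, 48.9, 82.5 and 32.3 CPM in Control and 22.5 and 23.5 CPM in Unloading (log2 fold change -1.14 and -0.78, adjusted p 0.015 and 0.00506, with and without Control 3). Without Unloading 1 none of the 4 was called, with adjusted p-values of 0.274, 0.0999, 0.147 and 0.174 in the order given above.

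Interferon-stimulated genes as a list had 47 of 49 log2 fold changes below 0 with Control 3. The list had 2 calls, Irf7 and Ifit3b (4.1%, against 9.9% of all tested genes). The median went from -0.66 to -0.20 without Control 3. Irf7, a transcription factor of the interferon response, measured 3.27, 4.97, 12.1 and 5.23 CPM in Control and 2.92 and 2.404 CPM in Unloading, and was not called without Control 3 (adjusted p 0.0575). Ifit3b measured 3.04, 2.901, 4.001 and 2.92 CPM in Control and 1.27 and 1.48 CPM in Unloading and still was (adjusted p 0.00803 and 0.0268). Only genes that lost their call without Control 3 were ranked by how far their log2 fold change moved. Those that moved most, beside Irf7, were Timeless, H2-DMb1, Gimap4, Gm20594 and Egr1. Of these, Gimap4, a GTPase of lymphocytes, measured 4.51, 6.13, 8.43 and 4.29 CPM in Control and 2.92 and 3.33 CPM in Unloading, and its adjusted p was 0.0424 with and 0.104 without Control 3.

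**Figure D5:**
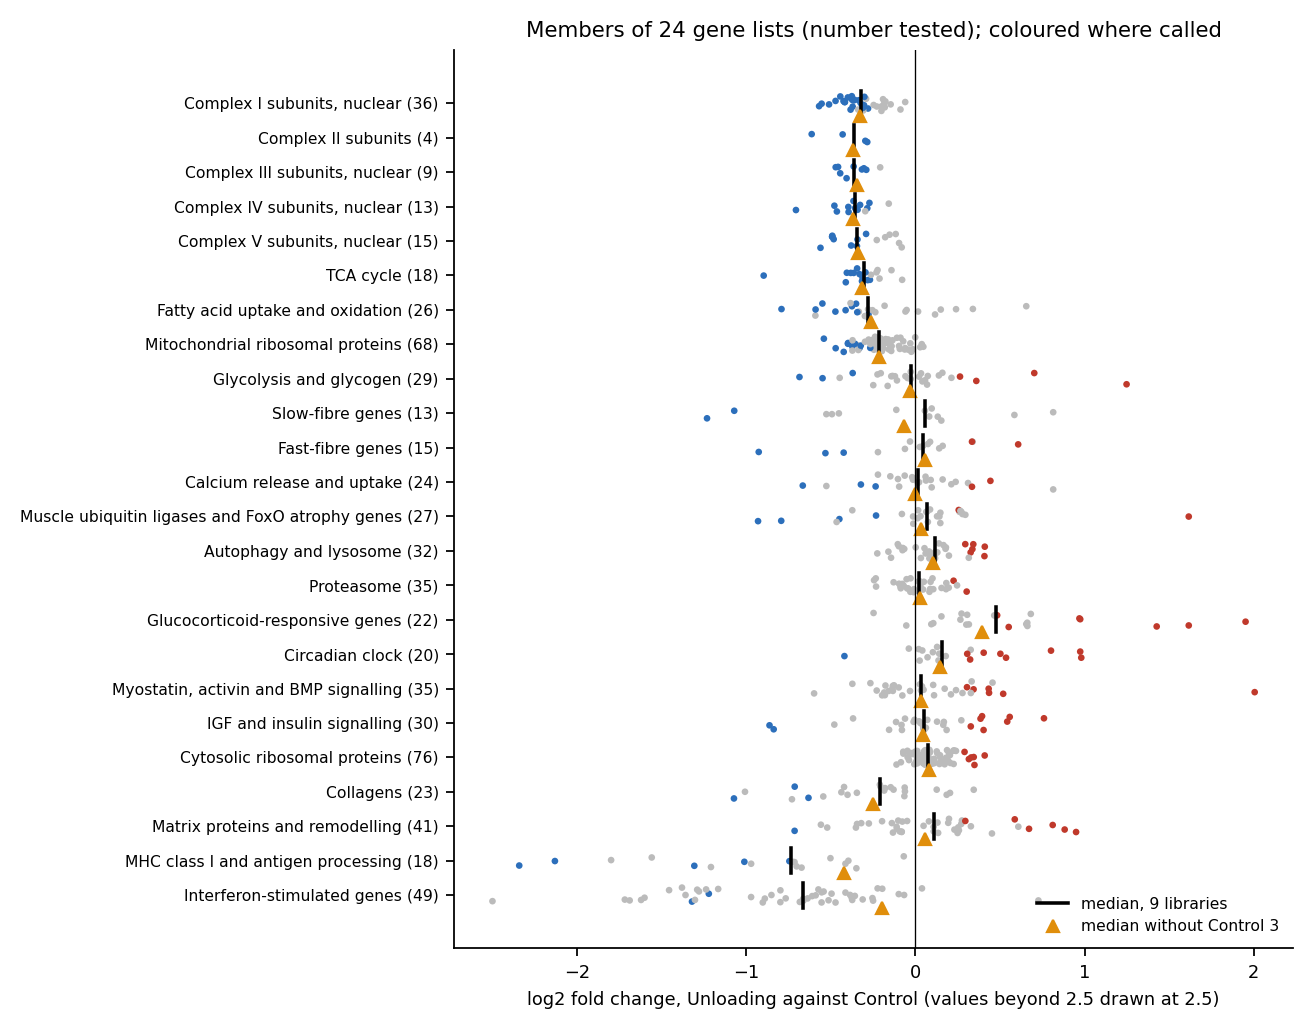
Log2 fold change of Unloading against Control (horizontal axis) for each tested member of 24 gene lists, grey where not called and blue or red where called lower or higher, with the median as a black bar and the median without Control 3 as an orange triangle. The medians of the lists at the top, from complex I down to the mitochondrial ribosomal proteins, lie between -0.36 and -0.22, and at the bottom the triangle of the interferon-stimulated genes lies at -0.20 and the bar at -0.66.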

How the data were processed

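Per the labels and the study's methods, the authors sequenced TruSeq libraries of polyadenylated RNA, aligned the reads to GRCm38.p6 with STAR 2.7.3a and made the gene counts of read pairs with featureCounts 2.0.3, without regard to strand, so that overlapping antisense genes cannot be told apart. The labels call the libraries paired-end and the methods single-read. The deposited table holds raw counts of 55487 genes with summed exon lengths. The tables of the authors' own comparisons (fold changes and p-values) were not used, except that gene symbols were taken from them.

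Here, genes were kept by filterByExpr (minimum count 10, minimum total count 15), which left 14851. The counts of all 9 libraries were scaled by TMM and fitted with edgeR 4.0.16 in R 4.3.3, with the group as the only term, and Unloading was compared with Control by the two-sided quasi-likelihood F-test with Benjamini-Hochberg adjustment over all tested genes and a threshold of 0.05. Standard errors (SE) come from the F statistic. Nothing in the labels says how the samples of a group are related, so p-values measure the spread between these samples. Alternatives were DESeq2 1.42.0, other scalings, filters and leaving out each library, and, chosen after seeing the data, leaving out Control 2 and 3 together and removing each library's trend with exon length or with length and GC content (lowess span 0.3). The procedure was tested on simulated data.

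The 42 gene lists, 13 marker lists and named genes were chosen with earlier results of these data known. The text names, but for a few genes not reported here, the 14 largest changes in each direction by the rule given in the report, leaving out predicted-gene and clone symbols of the Gm, Rik, BC and AW kinds, up to 4 called members of each list with the largest changes, 14 genes picked for their role, the 6 genes that lost their call without Control 3 and changed most, and the 6 called genes with the highest CPM in each direction. Other list members named in the text were chosen after their values were seen.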

Additional observations from a re-analysis of the deposited data

Results flagged for a closer look

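The 4 Control libraries were compared with each other for 233 named genes and list sums, and in 14 of them 1 library was far from the other 3 by Dixon's gap criterion, which chance alone meets in about 1 of 20. The libraries concerned were Control 1 in 4, Control 2 in 3, Control 3 in 4 and Control 4 in 3 of the 14, so no library held most of them.

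Control 3 was the high library for B2m (169 CPM, others 77.1 to 82.4), for the summed MHC class I and antigen processing list (762 CPM, others 376 to 422), for Ifit3b (4.00 CPM, others 2.90 to 3.04) and for the myogenic factor Myod1 (21.7 CPM, others 13.98 to 14.8). Control 2 was the high library for the summed keratinocyte list (320 CPM, others 12.9 to 16.6), Grb14 (21.1 CPM, others 14.7 to 15.4) and Rpl12 (162 CPM, others 142 to 145).

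Control 4 was high for Prg4 (15.6 CPM, others 6.07 to 6.88) and low for the mitochondrial subunits mt-Co2 (216 CPM, others 263 to 272) and mt-Nd3 (71.6 CPM, others 90.1 to 92.5). Control 1 was high for Rpl4 (635 CPM, others 589 to 592) and low for Chrnb1 (23.9 CPM, others 26.3 to 26.8), the chaperone Hspa8 (569 CPM, others 705 to 731) and the summed sarcomere and Z-disc list (70896 CPM, others 73310 to 73817). For Chrnb1, mt-Co2 and mt-Nd3 the outlying Control value lay on the same side of Unloading as the other Control values.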

How the results depend on the processing

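The count of 1470 called genes stayed within 1.5 times under other scalings, DESeq2, other fits of the spread, a 1 CPM filter and the trend corrections. Without a filter on low counts 1072 genes were called higher. With Control 2 and Control 3 left out, an alternative chosen after seeing the data, 555 were called, 225 higher and 330 lower. At least 1.5-fold, 535 differed, 180 higher and 355 lower. When each library was left out in turn the total ran from 121 (without Unloading 1) to 1518 (without Reloading 1), the higher genes from 65 to 687 and the lower genes from 56 to 831, and Control 3 brought them to 949, 391 and 558.

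Of the 166 named genes that were called, none changed direction. Their calls were kept in 136 without Control 3, 41 without Unloading 1, 129 without Unloading 2 and 139 with the length trend removed. With DESeq2 149 were kept and 15 lost, and 2 had no adjusted p and are not counted as lost. The genes whose sign changed were uncalled with all libraries, and of those given here Myh7 moved most with the library left out. Leaving out each library in turn, log2 fold changes ran from -0.012 to 0.13 for Trim63, -0.12 to 0.041 for Ppargc1a, -0.33 to 0.48 for Myh7, -0.022 to 0.074 for Myh4, -0.21 to 0.0029 for Myog and -0.20 to 0.13 for Arntl. Without Control 2 and Control 3 they were -0.28 for Myh7, 0.036 for Myog and 0.14 for Arntl. With the length trend removed they were -0.020 for Myh4 and 0.026 for Myog, and with length and GC removed -0.0050 for Myh4 and 0.036 for Myog. The cause was not tested.

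Samples with the same replicate number did not deviate together in every pair, so the numbers were not taken to pair the samples. With a replicate block by the numbers in the titles 1042 genes were called, with Ppargc1a at 0.035 and Myog at 0.10, and with a block by the numbers in the descriptions 1479, with Myog at 0.25. Depth limits low genes: at 1 read pair a library gave 0.0546 to 0.113 CPM, so members near 1 CPM rest on few reads. With 2 Unloading libraries, the spread is largely that of the other groups.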

Other observations

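Genes of protein folding leaned downwards. Of 37 chaperones 5 were lower (13.5%) and 1 higher (2.7%), against 5.5% and 4.4% of all tested genes. The median log2 fold change was -0.15, and 30 were below 0. Hspa8, the constitutive Hsp70, measured 569, 731, 705 and 723 CPM in Control and 462 and 522 CPM in Unloading (log2 fold change -0.47 ± 0.11 SE, adjusted p 0.0126), and Hsph1, its exchange factor, 75.3, 73.6, 77.2 and 79.3 CPM in Control and 51.7 and 57.8 CPM in Unloading (adjusted p 0.0193). Smyd1, a methyltransferase that aids the assembly of myosin, measured 592, 663, 639.6 and 667 CPM in Control and 486 and 535 CPM in Unloading (adjusted p 0.013). Without Control 3 the list had 3 calls, all lower, and without Unloading 1 it had none.

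Of 23 myogenic factors 5 were lower (21.7%, against 5.5% of all tested genes) and none higher, at a median of -0.04. Without Control 3, 2 were lower. Rcan2, an inhibitor of calcineurin, measured 58.9, 57.4, 50.8 and 53.1 CPM in Control and 29.3 and 41.5 CPM in Unloading (log2 fold change -0.63 ± 0.11 SE, adjusted p 0.0043). Myod1 measured 13.98, 14.3, 21.7 and 14.8 CPM in Control and 9.36 and 11.9 CPM in Unloading and was not called without Control 3, its highest library (adjusted p 0.0391 with and 0.0789 without). Myog measured 2.37, 3.23, 3.79 and 3.52 CPM in Control and 2.84 and 3.28 CPM in Unloading, with overlap.

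At the costamere, which ties the sarcomere to the membrane, 1 of 29 genes was higher and 2 were lower. That is 10.3% called, near the 9.9% of all tested genes. Itgb1bp2 (melusin), a muscle partner of integrin beta 1, measured 115, 123, 122 and 121 CPM in Control and 78.4 and 83.6 CPM in Unloading (log2 fold change -0.57 ± 0.07 SE, adjusted p 0.000494), and Itga7, the laminin-binding integrin of muscle, 81.1, 94.5, 89.4 and 89.3 CPM in Control and 119.5 and 117 CPM in Unloading (log2 fold change 0.41 ± 0.08 SE, adjusted p 0.0047). Sgcd, a sarcoglycan, measured 21.7, 18.2, 23.7 and 26.4 CPM in Control and 14.8 and 14.6 CPM in Unloading (adjusted p 0.0129). Of 24 load-sensing genes, Mustn1 and Cavin4 were higher (8.3%, against 4.4% of all tested genes). Mustn1 measured 40.1, 46.8, 37.4 and 37.8 CPM in Control and 73.96 and 46.9 CPM in Unloading. It was not called without Control 3 (adjusted p 0.0579), and Unloading 2 was level with the highest Control library.

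Of 27 immediate-early genes Klf6 was higher, at 21.3, 22.5, 23.4 and 30.03 CPM in Control and 52.2 and 46.8 CPM in Unloading (log2 fold change 1.02 ± 0.11 SE, adjusted p 0.000162), and Egr1 lower, at 3.72, 13.5, 13.3 and 6.26 CPM in Control and 3.67 and 3.72 CPM in Unloading (adjusted p 0.0498 with and 0.115 without Control 3). Of 23 Atf4 targets and amino acid transporters Chac1 was higher and Slc38a4, an amino acid transporter, lower, with a log2 fold change of -0.38 and a list median of -0.05. The polyamine list had 1 of 11 higher and 2 lower (1 and none without Control 3), the heme and iron list 1 of 21 and 3, and the antioxidant list 1 of 25 and 2. Of all tested genes 4.4% were higher and 5.5% lower, which is 9.9% called. The immediate-early and Atf4 lists, at 7.4% and 8.7% called, lay below that 9.9%, and the antioxidant list lay near it. The polyamine list and the heme and iron list lay above it, at 27.3% and 19.05%, but with 3 and 4 called genes. Among the called genes with the highest CPM not described above, Pde4dip (myomegalin) measured 5404, 4665, 4991 and 5423 CPM in Control and 7849 and 6392 CPM in Unloading, Ybx3, a cold-shock domain protein, 1838, 1578, 1641 and 1707 CPM in Control and 2379 and 2298 CPM in Unloading, and Slc25a4, the mitochondrial ADP/ATP carrier, 3376, 3747, 3634 and 3392 CPM in Control and 2629 and 3077 CPM in Unloading. Slc38a4 and Slc25a4 were not called without Control 3 (adjusted p 0.0772 and 0.0624).

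No tested marker of neutrophils (3 tested), lymphocytes (1), satellite cells (5), erythrocytes (5) or Schwann cells and nerve (7) was called. Of 10 smooth muscle and pericyte markers Rgs5 was higher (10.0%) and Smtn lower (10.0%). Of 8 tendon markers Col1a1 was lower (12.5%), and of 10 keratinocyte markers Trp63 was higher (10.0%). Of 8 skeletal muscle fibre markers Acta1 and Mb were lower (25.0%). Among all tested genes 4.4% were called higher and 5.5% lower.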
